A study of Mus musculus with 55 samples.

Results

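Of the genes of the HoxC and HoxD clusters, 10 are described here: Hoxc4, Hoxc5, Hoxc6, Hoxc8 and Hoxc9 from HoxC, and Hoxd1, Hoxd3, Hoxd4, Hoxd8 and Hoxd9 from HoxD. They were chosen by name, and all 10 were found among the 15807 genes of a table of epiblast stem cell (EpiSC) libraries and among the 14602 genes of a table of tailbud libraries. Both tables hold CEL-seq counts, which come from the 3′ ends of transcripts, so levels of different genes can be set side by side without scaling by length. The tailbuds were microdissected from untreated mouse embryos at E8.0 and carried the labels Triple, Cdx1-4 or WT, with 3 libraries each. The labels do not spell out the alleles of Triple and Cdx1-4, and the same-stage WT embryos were the controls. The EpiSCs, which are lines grown from pre-streak mouse embryos, were Null at 24h, Null at 0h, WT at 24h and WT at 0h, with 2 libraries each. The growth text of the Null cells names CdxKO embryos as their source and also speaks of genotyping cells null for Wnt3. At 0h the cells were kept in 2 µM IWP2, which blocks the secretion of Wnt proteins. At 24h IWP2 had been withdrawn and 3 µM Chiron (CHIR99021, a GSK3 inhibitor that switches on Wnt signalling) and 120 ng/mL Fgf8 had been added. All EpiSC lines had been started on fibroblast feeders, were then passaged without them, and grew in Activin A and basic Fgf. No group was kept untreated for 24h, so the effects of Chiron, Fgf8, IWP2 removal and time cannot be told apart.

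Hox genes code for homeodomain transcription factors that give cells their position along the head to tail axis. They lie in clusters, and genes of like position in different clusters are paralogs that carry the same number: low numbers are switched on early and are expressed far forward, high numbers late and towards the tail. Cdx proteins are homeodomain factors that bind Hox clusters and promote the central Hox genes, and T (Brachyury) is a T-box factor of the primitive streak and tailbud. Members of HoxC and HoxD take part, among other roles, in patterning the vertebrae, and HoxD also the limbs.

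In RefSeq's GRCm38.p6 annotation, the assembly known as mm10, which the submitters' processing notes name, the HoxC genes lie within chr15:102977032-103036856 and the HoxD genes within chr2:74697763-74765142. Both sets run from the gene with number 9 at the low coordinate towards the low-numbered genes. Hoxd3 spans Hoxd4 on the same strand and is overlapped by the antisense gene Hoxd3os1, and Hoxc4, Hoxc9 and Hoxd8 each overlap a predicted long non-coding RNA. Whether the counting used strand is not given in the sources used here, so counts of Hoxd3 and Hoxd4 in particular may share reads.

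RefSeq promoters, from 250 bases before to 50 bases after an annotated start, were at hand for 6 of the 10 genes: Hoxc4, Hoxd1, Hoxd3, Hoxd4, Hoxd8 and Hoxd9. They were searched on both strands for the Cdx-type letters TTTATG and TTTATA, for GGTGTGA, one arm of the site that T binds, and for the Tcf/Lef-type letters CTTTGAT and CTTTGAA, since the study compared cells and embryos with altered Cdx genes and Wnt signalling. Shown are the promoters of the HoxD genes that could be tested in tailbuds, all on the plus strand of GRCm38.p6: Hoxd9 at chr2:74697513-74697812, Hoxd4 at chr2:74721728-74722027, Hoxd3 at chr2:74711743-74712042 and Hoxd1 at chr2:74762730-74763029. Capitals mark the matched letters.
Hoxd9: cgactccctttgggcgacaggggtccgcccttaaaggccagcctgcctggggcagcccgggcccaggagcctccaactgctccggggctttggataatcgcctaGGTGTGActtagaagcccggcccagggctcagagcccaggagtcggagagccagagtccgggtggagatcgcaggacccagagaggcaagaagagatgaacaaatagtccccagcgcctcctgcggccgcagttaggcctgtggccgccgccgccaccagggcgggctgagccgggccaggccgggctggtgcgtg
Hoxd4: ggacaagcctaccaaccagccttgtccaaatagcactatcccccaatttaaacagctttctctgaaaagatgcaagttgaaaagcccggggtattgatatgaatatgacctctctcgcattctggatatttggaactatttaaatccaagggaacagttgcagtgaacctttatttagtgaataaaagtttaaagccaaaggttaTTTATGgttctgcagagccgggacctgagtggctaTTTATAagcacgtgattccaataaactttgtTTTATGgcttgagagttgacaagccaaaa
Hoxd3: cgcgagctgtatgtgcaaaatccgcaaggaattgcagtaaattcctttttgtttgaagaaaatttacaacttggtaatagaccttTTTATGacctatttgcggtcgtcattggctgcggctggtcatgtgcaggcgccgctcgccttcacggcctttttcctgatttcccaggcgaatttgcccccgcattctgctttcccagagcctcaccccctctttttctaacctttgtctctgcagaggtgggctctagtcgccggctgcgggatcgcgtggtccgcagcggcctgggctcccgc
Hoxd1: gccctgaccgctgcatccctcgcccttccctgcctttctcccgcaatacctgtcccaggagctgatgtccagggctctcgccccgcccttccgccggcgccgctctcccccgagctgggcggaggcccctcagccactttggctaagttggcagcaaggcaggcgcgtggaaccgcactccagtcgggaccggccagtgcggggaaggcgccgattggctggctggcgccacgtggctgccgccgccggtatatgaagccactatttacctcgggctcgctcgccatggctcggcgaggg
The Hoxd4 promoter held 2 copies of TTTATG, which began 45 bases before and 21 bases after the start, and 1 of TTTATA, which began 10 bases before it. The Hoxd3 promoter held 1 TTTATG, the Hoxd9 promoter 1 GGTGTGA, and the Hoxd8 promoter (not shown) 2 copies of CTTTGAT. No match was found in the Hoxd1 and Hoxc4 windows. The Hoxc4 window, chr15:103034145-103034444, lies inside the annotated gene, chr15:103018097-103036856, so the outer start of Hoxc4 was not searched. Over all 32851 RefSeq promoters, TTTATG was present in 11.9%, TTTATA in 13.6%, GGTGTGA in 3.98%, CTTTGAT in 3.73% and CTTTGAA in 5.14%. The Hoxd4 window was also the poorest in G and C of the 6, at 39.7%, against 68.3% for Hoxd9, 69.7% for Hoxd1 and a median of 52.7% over all promoters. These matches describe the letters only.

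Total counts ranged from 389601 to 854852 in the 9 tailbud libraries and from 1114055 to 2914870 in the 8 EpiSC libraries, and 3 counts correspond to 3.66 to 8.17 CPM (counts relative to library size, with the sizes scaled by TMM) in a tailbud library and to 1.04 to 2.71 CPM in an EpiSC library. Of the 10 genes, 7 passed the filter on low counts in tailbuds (Hoxc4, Hoxc5, Hoxc8, Hoxd1, Hoxd3, Hoxd4 and Hoxd9) and 1, Hoxd9, in EpiSCs. The others are given by their counts, with ratios of pooled CPM, exact 95% intervals for counting error only, and bounds from a floor of 3 counts over a group where that group had none. These bounds, written as "at least", take the count of the other group as it stands, without its counting error. They are thus not 95% limits, and where that count is small a smaller difference or none remains possible. Below, tailbud counts are given in the order of the libraries named green-1, blue-1 and blue-2 in the column headers. What the colours stand for is not stated, and nothing says that the libraries of a group came from separate embryos or cultures, so p-values measure the spread between these samples. As a check of the labels, Cdx4 had 0, 0 and 0 counts in Triple, 0, 1 and 0 in Cdx1-4 and 33, 16 and 19 in WT tailbuds. Cdx2 had 87.1 to 117 CPM in Triple, 173 to 268 CPM in Cdx1-4 and 174 to 269 CPM in WT tailbuds, and T had 98 to 115, 174 to 204 and 164 to 210 CPM in the same order. Cdx1 had 54.4 to 112 CPM in Triple, 44.2 to 81.1 CPM in Cdx1-4 and 153 to 217 CPM in WT tailbuds, so some 3′ counts of Cdx1, Cdx2 and T were present in every group.

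Each of the 10 genes had a lower mean CPM in Triple than in WT tailbuds, and 3 of them passed the test. The 10 genes together held 35.4, 70.8 and 104 CPM in Triple libraries and 278, 390 and 475 CPM in WT libraries. HoxC summed to 24.1 ± 15.3 CPM in Triple and 175 ± 35.3 CPM in WT tailbuds, and HoxD to 46 ± 21.4 CPM in Triple and 206 ± 63.4 CPM in WT tailbuds (SD, n = 3 each). Hoxc5, Hoxd4 and Hoxd9 fell past the threshold, an adjusted p below 0.05 by edgeR's quasi-likelihood test over all 6003 tested genes, of which 1.28% were called lower and 1.62% higher. In 9 of the 10 genes every Triple library lay below every WT library, as did 5.86% of all genes with a count in these libraries. In a dissected tailbud, fewer cells that express a gene and less of its RNA per cell cannot be told apart.

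**Figure D1:**
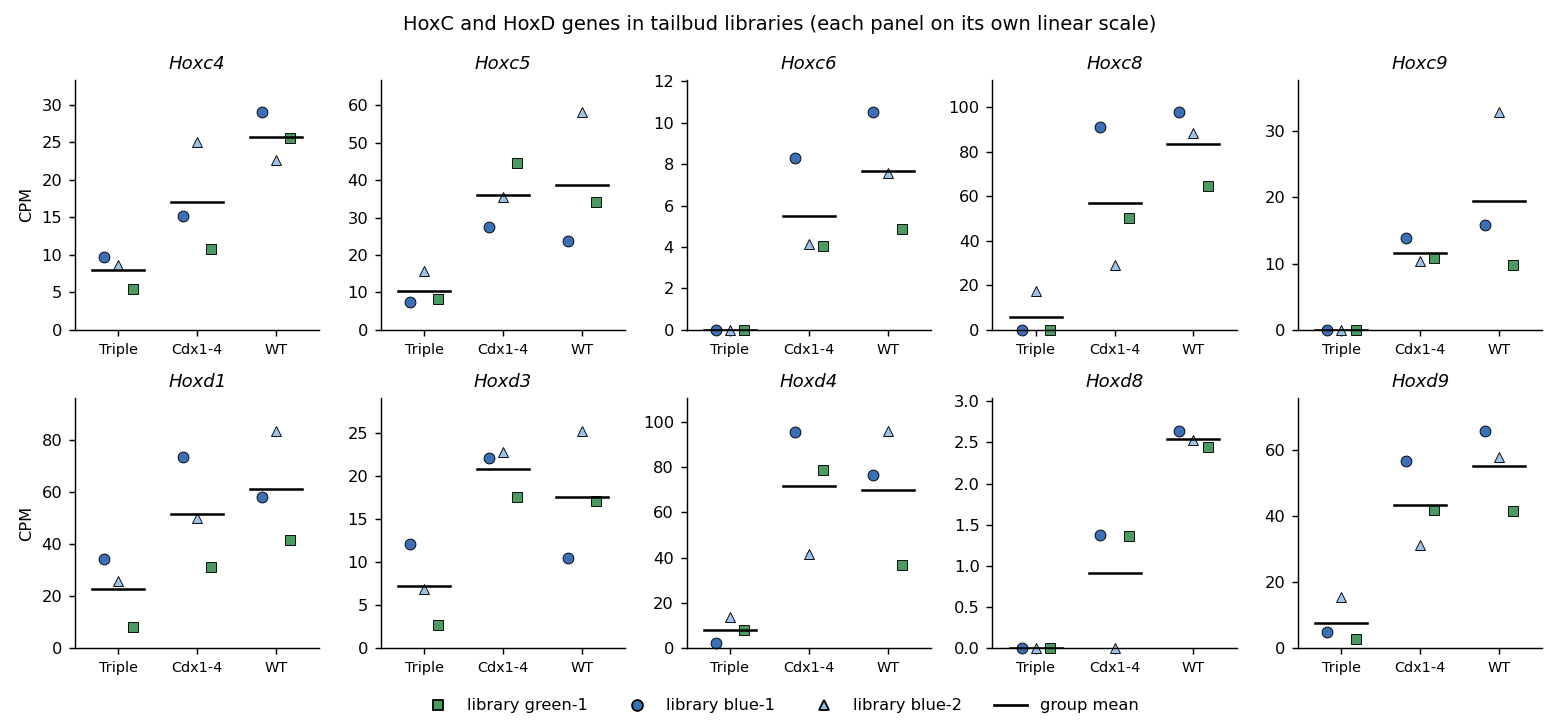
CPM of each of the 10 genes in each tailbud library, with Triple, Cdx1-4 and WT from left to right in each panel, a symbol per library and a line at the group mean. In every panel other than that of Hoxd3 all Triple symbols lie below all WT symbols, and Hoxc6, Hoxc9 and Hoxd8 are at 0 in all 3 Triple libraries.

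Hoxd9, of a paralog group that in mouse acts on the posterior ribs and the limbs, had 1, 2 and 9 counts in Triple (2.72, 4.88 and 15.6 CPM) and 34, 25 and 23 counts in WT tailbuds (41.5, 65.9 and 58.1 CPM). The highest Triple library was thus below the lowest WT library. The log2 difference was -2.54 ± 0.41 (SE; adjusted p = 2.7e-05). It was called under all 12 alternatives, with differences from -3.69, without Triple blue-2, to -2.22, and measured -2.45 with the blue libraries alone. Hoxd4, known for its early retinoic acid response in the hindbrain and neck region, had 3, 1 and 8 counts in Triple (8.17, 2.44 and 13.9 CPM) and 30, 29 and 38 counts in WT tailbuds (36.6, 76.5 and 96 CPM). All 3 Triple values again lay below all WT values, with a log2 difference of -2.81 ± 0.55 (adjusted p = 0.00545). Without the Triple library green-1 the difference was -2.77 and the adjusted p 0.0556, without Triple blue-2 it was -3.56 (adjusted p = 0.00893), and with the blue libraries alone it was -3.21 (adjusted p = 9.2e-04). Hoxc5 had 3, 3 and 9 counts in Triple (8.17, 7.33 and 15.6 CPM) and 28, 9 and 23 counts in WT tailbuds (34.2, 23.7 and 58.1 CPM). The log2 difference was -1.76 ± 0.41 (adjusted p = 0.00537), and this call depended on single libraries. The adjusted p was 0.0507 without Triple blue-1, 0.0646 without WT blue-2 and 0.102 with the blue libraries alone.

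Hoxc8, which in mouse patterns thoracic vertebrae and brachial motor neurons, had the largest log2 difference of the 7 tested genes and the least even one. Its counts were 0, 0 and 10 in Triple (0, 0 and 17.3 CPM) and 53, 37 and 35 in WT tailbuds (64.7, 97.6 and 88.4 CPM). All of its Triple counts came from 1 library, blue-2, and the log2 difference of -3.41 ± 0.78 did not pass the threshold (adjusted p = 0.068). Without that library the pooled Triple count was 0 against 125 in WT, at least 20.3-fold lower, and the adjusted p was 6.0e-05. The adjusted p was also 1.8e-05 with only the compared groups in the fit and 0.021 with DESeq2. Of the 12 alternatives, however, only 5 called Hoxc8, and the highest adjusted p was 0.222, without WT blue-2. Triple blue-2 was the highest Triple library for 4 of the 7 genes with Triple counts, Hoxc5, Hoxc8, Hoxd4 and Hoxd9, and blue-1 for Hoxc4, Hoxd1 and Hoxd3. Outside these clusters, blue-2 also held 12 of the 13 Triple counts of Hoxa5 and 7 of the 9 of Hoxb9. Without blue-2 the summed HoxC level in Triple was 15.4 CPM and the HoxD level 37.8 CPM, both lower than with it.

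Hoxd1, Hoxc4 and Hoxd3 did not pass the threshold in this comparison either. Hoxd1, a paralog of the hindbrain gene Hoxb1, had 3, 14 and 15 counts in Triple (8.17, 34.2 and 26 CPM) and 34, 22 and 33 counts in WT tailbuds (41.5, 58 and 83.4 CPM). Its log2 difference was -1.27 ± 0.39 (adjusted p = 0.0801), and the adjusted p was 0.0208 without the WT library green-1 and 0.0279 with only the compared groups in the fit. Only 4 of 12 alternatives called Hoxd1, and the highest adjusted p was 0.254, without Triple green-1. Hoxc4 had 2, 4 and 5 counts in Triple and 21, 11 and 9 counts in WT tailbuds, a log2 difference of -1.64 ± 0.49 (adjusted p = 0.0508). Its Triple values, 5.44 to 9.77 CPM, lay below the WT values of 22.7 to 29 CPM. Hoxd3 had 1, 5 and 4 counts in Triple (2.72, 12.2 and 6.94 CPM) and 14, 4 and 10 counts in WT tailbuds (17.1, 10.5 and 25.3 CPM). It was the only gene of the 10 whose groups overlapped, with a log2 difference of -1.23 ± 0.55 (adjusted p = 0.326).

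The 3 genes below the filter had no count in any Triple library. Hoxc9, the HoxC paralog of Hoxd9, had 8, 6 and 13 counts in WT tailbuds, so Triple was at least 7.64-fold lower. Hoxc6, a thoracic gene next to Hoxc8 in the cluster, had 4, 4 and 3 counts in WT, and Triple was at least 3.11-fold lower. Hoxd8 had only 2, 1 and 1 counts in WT tailbuds, and the bound was 1.13-fold, so a difference was hardly detectable at this depth. Without Triple blue-2, the deepest Triple library, the bounds were 4.39-fold for Hoxc9 and 1.79-fold for Hoxc6, and that for Hoxd8 fell below 1.

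Against Cdx1-4 tailbuds, Triple was lower by mean CPM in all 10 genes as well, in a comparison that shares its Triple libraries with the one above. Hoxc5 (log2 difference -1.69 ± 0.40, adjusted p = 0.00915), Hoxd4 (-3.04 ± 0.51, adjusted p = 0.00239) and Hoxd9 (-2.31 ± 0.41, adjusted p = 2.6e-04) were lower in Triple and passed the threshold, as did 0.8% of all tested genes. Hoxd4 and Hoxd9 were called under all 12 alternatives, with differences from -3.80 to -2.66 for Hoxd4 and from -3.45 to -1.98 for Hoxd9, the lowest of both without Triple blue-2. Hoxc5 lost its call with the blue libraries alone (adjusted p = 0.361), with DESeq2 (0.0825) and without Cdx1-4 green-1 (0.114), Triple green-1 (0.064) or Triple blue-1 (0.0987). The other tested genes had differences of -2.98 ± 0.80 (Hoxc8, adjusted p = 0.161), -1.45 ± 0.51 (Hoxd3, 0.175), -1.12 ± 0.38 (Hoxd1, 0.175) and -0.97 ± 0.52 (Hoxc4, 0.506). Hoxc8 was called without Triple blue-2 (adjusted p = 4.3e-04), Cdx1-4 blue-1 (0.0234) or Cdx1-4 blue-2 (0.0157), and Hoxd1 without Cdx1-4 green-1 (0.0286). Most alternatives did not call them. Hoxc8 was called in 5 of 12, with a highest adjusted p of 0.32 with only the compared groups in the fit. Hoxd1 was called in 3 of 12, with a highest of 0.496 without Cdx1-4 blue-1. The libraries of both groups were fully separated in 8 of the 10 genes, against 5.75% of all genes with a count. Hoxd1 and Hoxd8 overlapped. Hoxc6 and Hoxc9, at 0 in Triple, were at least 2.56-fold and 5.34-fold lower there than in Cdx1-4, and at least 1.47-fold and 3.07-fold lower without Triple blue-2.

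Between Cdx1-4 and WT tailbuds none of the 7 tested genes passed the threshold, where edgeR called 0.1% of all tested genes lower and 0.0333% higher. None of the 7 had an unadjusted p below 0.05, and DESeq2 called none either. The differences ran from -0.67 ± 0.38 for Hoxc4 (adjusted p = 0.718) to 0.23 ± 0.33 for Hoxd4 (adjusted p = 0.92) and 0.23 ± 0.41 for Hoxd3 (adjusted p = 0.941). Hoxd4 had 58, 69 and 20 counts in Cdx1-4 (78.6, 95.4 and 41.6 CPM), a range that covers most of the WT range of 36.6 to 96 CPM. Hoxd9 had 31, 41 and 15 counts in Cdx1-4 (42, 56.7 and 31.2 CPM) and a difference from WT of -0.24 ± 0.27 (adjusted p = 0.891). Hoxc8 had 37, 66 and 14 counts in Cdx1-4 (50.2, 91.2 and 29.1 CPM), with -0.43 ± 0.47 (adjusted p = 0.891). These values overlap with WT in both genes. Hoxc5 had 33, 20 and 17 counts in Cdx1-4, and -0.07 ± 0.29 (adjusted p = 0.979), and Hoxd1 had 23, 53 and 24 counts, and -0.15 ± 0.31 (adjusted p = 0.948).

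The intervals below cover counting error alone. Libraries of a group differed by more than that, so what remains possible is wider than these intervals. By pooled counts and counting error alone, the level in Cdx1-4 was 0.768 times that in WT for Hoxc8 (0.592 to 0.997), the only interval of the 10 that leaves out 1, although its libraries overlapped. For Hoxc4 the ratio was 0.621 (0.376 to 1.01) and for Hoxd3 1.17 (0.706 to 1.97). The level in Cdx1-4 was 0.958 times that in WT for Hoxc5 (0.669 to 1.38), 0.922 for Hoxd1 (0.686 to 1.24), 0.871 for Hoxd9 (0.637 to 1.19) and 1.24 for Hoxd4 (0.956 to 1.62). For the scarce genes the intervals were wide: 0.821 for Hoxc6 (0.323 to 2.09), 0.699 for Hoxc9 (0.383 to 1.27) and 0.41 for Hoxd8 (0.0371 to 2.86). Hoxc9 had 8, 10 and 5 counts and Hoxc6 3, 6 and 2 counts in Cdx1-4, so both were present in every Cdx1-4 library and in no Triple library. Hoxd8, at 1, 1 and 0 counts in Cdx1-4, was the only one of the 10 whose Cdx1-4 libraries all lay below the WT libraries, on 2 counts against 4, as did 4.5% of all genes with a count. Summed over each cluster, Cdx1-4 held 127 ± 26.7 CPM of HoxC and 188 ± 53.8 CPM of HoxD RNA (SD, n = 3), beside 175 ± 35.3 and 206 ± 63.4 CPM in WT, differences within the spread of the libraries for HoxD and with overlapping ranges for HoxC.

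**Figure D2:**
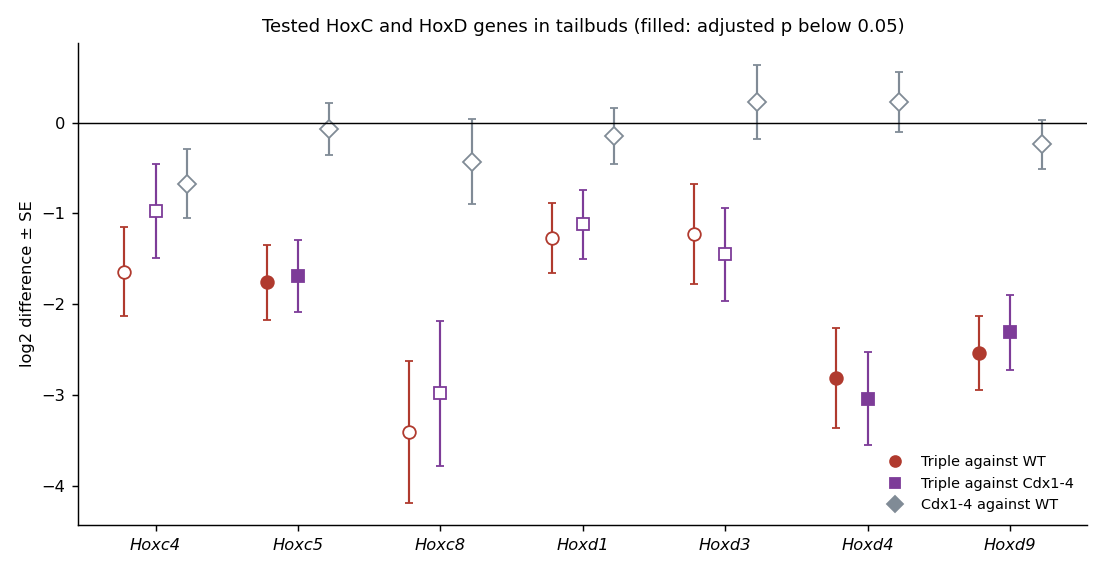
Log2 difference with its standard error for the 7 tested genes in Triple against WT (circles), Triple against Cdx1-4 (squares) and Cdx1-4 against WT (diamonds), filled where the adjusted p was below 0.05. Both comparisons with Triple lie below 0 for all 7 genes, from -0.97 to -3.41, while Cdx1-4 against WT stays between -0.67 and 0.23 with no filled symbol.

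The order of the 3 groups was Triple lowest for all 10 genes. Cdx1-4 came next for 8 of them, and for Hoxd3 and Hoxd4 Cdx1-4 had the highest mean, with 20.9 ± 2.84 CPM of Hoxd3 in Cdx1-4 and 17.6 ± 7.37 CPM in WT tailbuds. The neighbours Cdx1-4 and WT overlapped for 9 of the 10 genes. The shares of single genes in the pooled counts were as follows. Hoxd1 made up 31.4% of the 102 Triple counts (exact 95% interval 22.5 to 41.3%), 15.9% of the 628 Cdx1-4 counts (13.1 to 19%) and 15.8% of the 564 WT counts (12.9 to 19.1%). Hoxc8 made up 9.8% of Triple counts (4.8 to 17.3%), 18.6% of Cdx1-4 counts (15.7 to 21.9%) and 22.2% of WT counts (18.8 to 25.8%). The pooled Triple shares depend on blue-2, which held 60 of the 102 counts. Hoxc8 made up 16.7% of the counts in blue-2 (8.29 to 28.5%) and 0 of the 42 counts in the other Triple libraries (0 to 8.41%). Hoxd1 made up 25% in blue-2 (14.7 to 37.9%) and 40.5% in the others (25.6 to 56.7%). In WT tailbuds Hoxc8 and Hoxd4 led with 125 and 97 counts, Hoxd1 and Hoxd9 followed with 89 and 82, and Hoxc6 and Hoxd8 closed with 11 and 4.

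**Figure D3:**
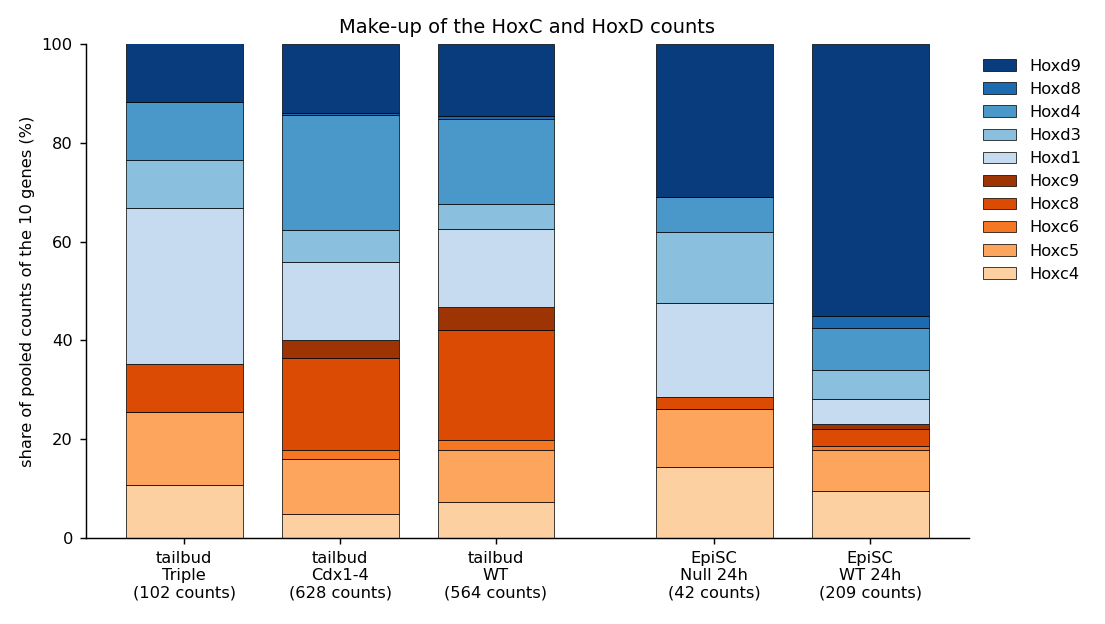
Share of each gene in the pooled counts of the 10 genes, with HoxC in orange and HoxD in blue, for the Triple, Cdx1-4 and WT tailbuds and, from a separate table, for Null and WT EpiSCs at 24h. Hoxd1 takes 31.4% of the Triple bar and 15.8% of the WT tailbud bar, and Hoxd9 takes 55% of the WT EpiSC bar.

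Of the 10 tested HoxA and HoxB genes reported here, 4 fell in Triple against WT. Hoxb1 measured 0.11 ± 0.14 (adjusted p = 0.846), while its paralog Hoxd1 measured -1.27 ± 0.39. In group 4, Hoxb4 measured -0.15 ± 0.25 (adjusted p = 0.906) beside Hoxd4 at -2.81 ± 0.55 and Hoxc4 at -1.64 ± 0.49. In group 5, Hoxb5 measured -0.22 ± 0.29 (adjusted p = 0.871), and Hoxa5 -2.69 ± 0.49 (adjusted p = 0.0014), beside Hoxc5 at -1.76 ± 0.41. From group 7 on all tested HoxB genes fell: Hoxb7 measured -2.12 ± 0.55 (adjusted p = 0.0168), Hoxb8 -3.24 ± 0.28 (adjusted p = 7.5e-12) and Hoxb9 -4.92 ± 0.36 (adjusted p = 3.6e-12). Hoxb9 thus had 1, 1 and 7 counts in Triple and 136, 75 and 109 counts in WT tailbuds. In Cdx1-4 against WT none of these 10 passed the threshold in edgeR, and 1, Hoxb9, had an unadjusted p under 0.05 (0.0389). Differences between one paralog and another were not tested.

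**Figure D4:**
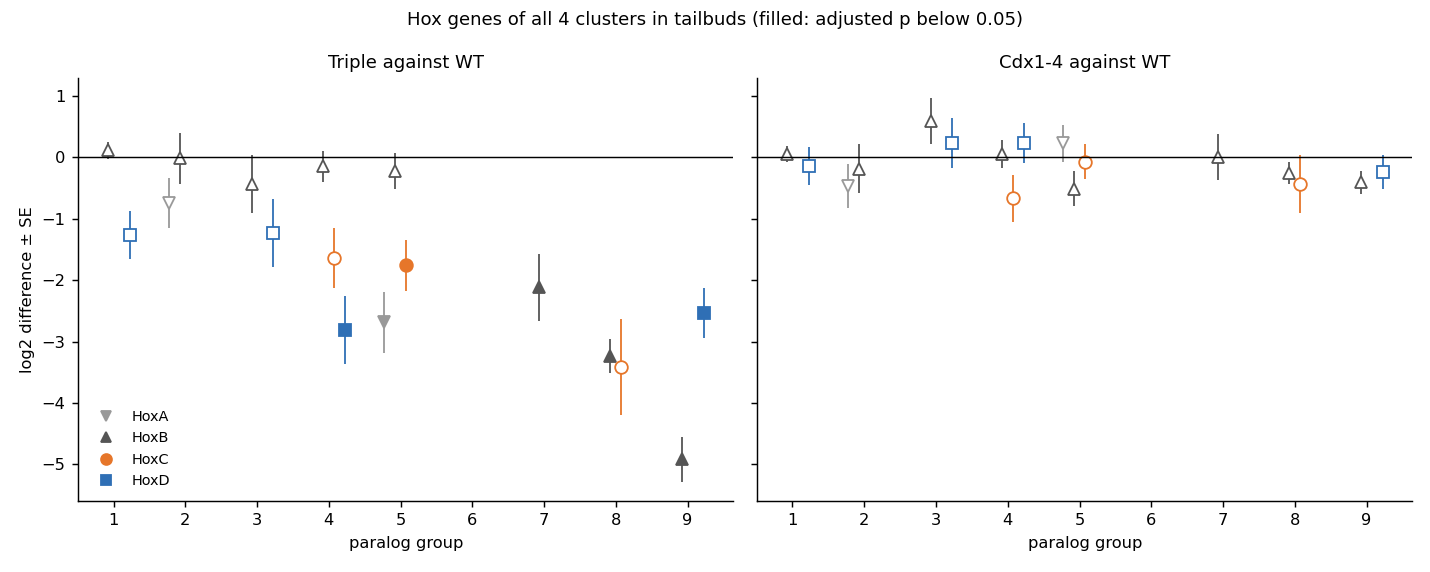
Log2 difference with its standard error for the tested HoxC and HoxD genes and the reported HoxA and HoxB genes in Triple against WT (left) and Cdx1-4 against WT (right), placed by paralog group and marked by cluster, filled where the adjusted p was below 0.05. On the left Hoxb1 to Hoxb5 lie between -0.43 and 0.11, whereas the HoxC and HoxD genes lie between -3.41 and -1.23, Hoxd1 included.

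Genes with higher numbers than 9 were barely counted in these tailbuds. Hoxd13, the gene at the far end of HoxD that acts in digits and genitalia, had 0, 0 and 0 counts in Triple, 2, 3 and 0 in Cdx1-4 and 3, 1 and 0 in WT tailbuds. Hoxd11, Hoxd10, Hoxc10 and Hoxc13 had at most 2 counts in any library and none in Triple. Genes that flank the clusters on their chromosomes were called in neither direction in Triple against WT, with 0 of 7 tested neighbours of HoxD and 0 of 4 of HoxC, and medians of 0.06 and -0.04 beside a median of 0 over all tested genes. The same held for 14 tested Polycomb and Trithorax genes, which code for complexes that keep Hox clusters silent or active (median 0.01). Over all tested genes only 1.28% were called lower and 1.62% higher, so lists this short would hold few calls in any case. Of 5 tested Hox cofactors, which bind DNA together with Hox proteins, Meis2 rose by 1.22 ± 0.20 (adjusted p = 4.6e-05) and none fell.

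Markers of other cell states moved with the Triple label. Presomitic mesoderm markers summed to 125 to 161 CPM in Triple, 363 to 383 CPM in Cdx1-4 and 374 to 409 CPM in WT tailbuds, Msgn1 was at 0 in Triple, and all 4 tested ones were called lower in Triple than in WT, among them Tbx6 (-1.68 ± 0.21) and Hes7 (-1.58 ± 0.30). Somite markers summed to 281 to 352 CPM in Triple, 94.9 to 133 CPM in Cdx1-4 and 61.1 to 84.4 CPM in WT tailbuds, and 2 of 3 tested ones were called higher in Triple than in WT, Meox1 (2.56 ± 0.21) and Tcf15 (2.25 ± 0.40), while Pax1 and Ripply1 were at 0 in all 3 groups. Neural crest markers summed to 101 to 121 CPM in Triple, 10.8 to 16.6 CPM in Cdx1-4 and 7.58 to 11 CPM in WT tailbuds. The 1 tested crest gene, Sox10, was called higher (5.03 ± 0.39), and Foxd3 was at 0 in every group. Tfap2b, too scarce to be tested, was at 0 in Triple and Cdx1-4 but not in WT tailbuds. Neural tube markers summed to 267 to 344 CPM in Triple, 234 to 316 CPM in Cdx1-4 and 158 to 245 CPM in WT tailbuds, and 1 of 2 tested ones was called higher in Triple than in WT, Sox3 (0.89 ± 0.20). The summed ranges of Triple and WT overlapped for lateral plate, blood, extraembryonic, fibroblast and epiblast markers. Single genes of these lists were called in Triple against WT: Gata6 higher (1.30 ± 0.34) and Tbx4 lower (-2.66 ± 0.64) of 6 tested lateral plate markers, Prl8a2 higher (4.94 ± 0.93) of 4 extraembryonic ones and Thy1 lower (-3.26 ± 0.65) of 3 fibroblast ones. Of 8 tested genes for Cdx, T and trunk signals, 6 were called lower in Triple than in WT, among them Cdx1 (-1.27 ± 0.22), Cdx2 (-1.12 ± 0.19) and T (-0.85 ± 0.17), and 1 was called higher, Aldh1a2, which makes retinoic acid (1.34 ± 0.20). The part of these values in the Hox differences was not tested.

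In EpiSCs, Hoxd9 was the gene of the 10 with the most counts and the only one that could be tested. In WT cells its replicates held 66 and 49 counts after 24h (23 and 31.3 CPM), against 2 and 1 counts before treatment (1.07 and 0.569 CPM). Hoxd9 rose by 4.89 ± 0.55 on the log2 scale (SE; adjusted p = 3.0e-08), where 8.19% of the 9703 tested genes were called higher and 8.63% lower. By pooled counts the level at 24h was 31.3 times that at 0h (10.4 to 154). All 9 alternatives called it.

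The other genes followed the same direction in WT cells at lower counts. At 24h against 0h, Hoxc4 had 17 and 3 against 1 and 0 counts, a ratio of pooled levels of 16.3 (2.61 to 677), and Hoxd4 had 12 and 6 against 0 and 1 counts, a ratio of 14.7 (2.32 to 612). Hoxc5 had 12 and 5 counts at 24h and none at 0h, at least 4.63-fold higher, and Hoxd3 had 9 and 3 counts and none, at least 3.27-fold higher. The intervals of Hoxc4 and Hoxd4 stay above 1. Those of Hoxd1 (6 and 5 against 1 and 1 counts; ratio 4.49, 0.98 to 41.7) and Hoxc8 (3 and 4 against 2 and 1 counts; ratio 1.9, 0.435 to 11.4) do not. Hoxd8 had 5 and 0 counts at 24h, all in replicate 1, Hoxc6 had 0 and 2 and Hoxc9 had 1 and 1, each with none at 0h, too few for a ratio except for the Hoxd8 bound of 1.36. In 7 of the 10 genes both 24h libraries lay above both 0h libraries, as did 23% of all genes with a count. Hoxd13 was also seen at 24h, with 2 and 2 counts in Null cells and 5 and 3 in WT cells, and with none in any 0h library.

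**Figure D5:**
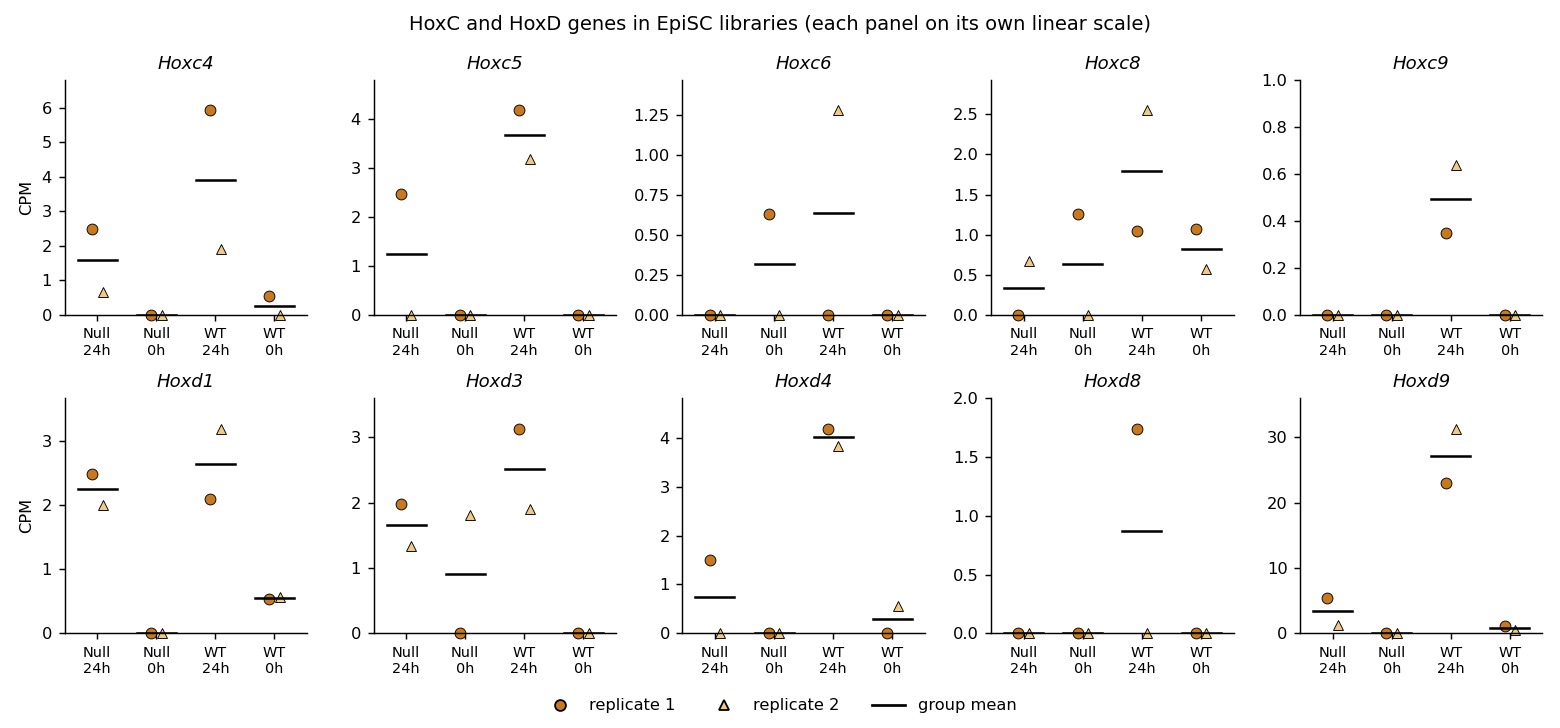
CPM of each of the 10 genes in each EpiSC library, with Null 24h, Null 0h, WT 24h and WT 0h from left to right in each panel and a line at the group mean. Hoxd9 reaches 23 and 31.3 CPM in WT cells at 24h and 5.45 and 1.34 CPM in Null cells at 24h, and the other 9 genes stay at or below 5.92 CPM.

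Null cells had fewer counts of these genes at 24h. Hoxd9 had 11 and 2 counts in Null cells at 24h (5.45 and 1.34 CPM), against 66 and 49 counts in WT cells at 24h (23 and 31.3 CPM). The log2 difference was -2.83 ± 0.42 (adjusted p = 1.9e-05), where 4.35% of tested genes were called lower and 3.7% higher. It was -4.24 without Null 24h replicate 1 and -2.27 without Null 24h replicate 2, the ends of its range over the alternatives, and was called in all 8 that gave an adjusted p. With DESeq2 the difference was -2.93, and no adjusted p was given. The level in Null was 0.143 times that in WT by pooled counts (0.0738 to 0.254), and no overlap was seen. Hoxd4 had 3 and 0 counts in Null cells at 24h and 12 and 6 in WT cells at 24h, a ratio of 0.211 (0.0397 to 0.722). Hoxc4 had 5 and 1 counts in Null and 17 and 3 in WT, a ratio of 0.379 (0.125 to 0.979), though the ranges overlapped. For Hoxc5 (5 and 0 counts in Null, 12 and 5 in WT) the ratio was 0.372 (0.107 to 1.05), for Hoxd3 (4 and 2 in Null, 9 and 3 in WT) 0.632 (0.195 to 1.82), for Hoxd1 (5 and 3 in Null, 6 and 5 in WT) 0.919 (0.321 to 2.51) and for Hoxc8 (0 and 1 in Null, 3 and 4 in WT) 0.181 (0.00401 to 1.41). Each of these last intervals includes 1. Hoxd8 had 0 counts in Null and 5 in WT, and the bound from 3 counts was 1.32-fold lower. That bound leaves out the counting error of the 5 WT counts, so no difference remains possible. Hoxc6 and Hoxc9 had no count in Null and 2 each in WT. Both Null libraries lay below both WT libraries in 5 of the 10 genes, against 21.2% of all genes with a count.

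Hoxd9 was also called higher in Null cells after 24h, on 11 and 2 counts, while neither Null library at 0h had any. The pooled level was at least 3.32-fold higher at 24h, and the adjusted p was 0.00908, where 9.18% of tested genes were called higher. Without Null 24h replicate 1, which held 11 of the 13 counts, the adjusted p was 0.214, and without Null 0h replicate 1 it was 0.0999. Hoxd9 did not pass the filter when only the Null groups were fitted. Hoxd1 had 5 and 3 counts at 24h and none at 0h in Null cells (at least 2.04-fold higher), Hoxc4 had 5 and 1 and none (at least 1.53-fold higher) and Hoxc5 had 5 and 0 and none (at least 1.28-fold higher). These bounds too leave out the counting error of the few 24h counts. Hoxd3 held 4 and 2 counts in Null cells after treatment, against 0 and 2 before it, a ratio of 2.3 (0.411 to 23.3). In Null cells 3 of the 10 genes had both 24h libraries above both 0h libraries, as did 24.9% of all genes with a count. The responses of Null and WT cells were also compared as an interaction, and for Hoxd9 the Null minus WT response was 0.85 ± 1.16 (adjusted p = 0.859), where 0.34% of tested genes were called higher and 0.227% lower. That estimate rests on the prior count given to the Null 0h group, which had no Hoxd9 count, and its sign turned to -0.60 without Null 24h replicate 1 and to -0.37 with DESeq2. Before treatment Hoxd9 had 0 and 0 counts in Null and 2 and 1 in WT cells (adjusted p = 0.341, where 3.35% of tested genes were called lower), and the 10 genes together had 5 counts in Null and 10 in WT cells. Both Null libraries lay below both WT libraries in 2 of the 10 genes, Hoxd1 and Hoxd9, as did 23.1% of all genes with a count.

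In both genotypes the HoxD counts outweighed the HoxC counts at 24h. HoxC summed to 4.96 and 1.34 CPM in Null and 11.5 and 9.57 CPM in WT cells at 24h, and HoxD to 11.4 and 4.68 CPM in Null and 34.1 and 40.2 CPM in WT cells. Hoxd9 made up 31% of the 42 Null counts at 24h (17.6 to 47.1%) and 55% of the 209 WT counts at 24h (48 to 61.9%). In the separate tailbud table it made up 14.5% of the WT counts (11.7 to 17.7%), and Hoxc8, which led there, made up 3.35% of the counts of WT EpiSCs at 24h (1.36 to 6.78%). The tables were scaled separately, so no level was compared between them.

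Fibroblast markers, which would show RNA of the feeders used to start the lines, summed to 97.3 ± 15.6 CPM in Null cells at 24h, 111 ± 12.2 CPM in Null cells at 0h, 132 ± 23.6 CPM in WT cells at 24h and 232 ± 32.4 CPM in WT cells at 0h (SD, n = 2 each). Of 4 tested ones, Col3a1 was called lower in Null than in WT cells at 24h (-1.06 ± 0.21). Epiblast markers summed to 341 ± 33.4 CPM in Null and 280 ± 7.18 CPM in WT cells at 24h, and to 1870 ± 210 CPM in Null and 1160 ± 46.7 CPM in WT cells at 0h. Presomitic mesoderm markers summed to 351 ± 61.9 CPM in Null and 284 ± 57.8 CPM in WT cells at 24h, and to 38.6 ± 3.49 CPM in Null and 56 ± 14.7 CPM in WT cells at 0h. Neural tube markers summed to 140 ± 13.7 CPM in Null and 238 ± 22.9 CPM in WT cells at 24h, with no overlap, and to 723 ± 124 CPM in Null and 777 ± 9.36 CPM in WT cells at 0h. Of 6 tested ones, Olig2 (-1.18 ± 0.22) and Sox2 (-0.79 ± 0.15) were called lower in Null than in WT cells at 24h, and 4 were called lower in WT cells at 24h than at 0h. Lateral plate markers summed to 104 ± 11.6 CPM in Null and 71.7 ± 5.84 CPM in WT cells at 24h, and 1 of 4 tested ones, Gata6, was called higher in Null (0.99 ± 0.20). Of 6 tested epiblast markers, 3 were called higher in Null than in WT cells at 24h, L1td1 (1.69 ± 0.24), Pou5f1 (0.99 ± 0.15) and Dnmt3b (0.87 ± 0.16), and Sox2, which is on this list too, lower. The part of these marker values in the Hox differences was not tested. Cdx2 had 21 and 19 counts in Null cells at 24h, 0 and 6 in Null cells at 0h, 87 and 21 in WT cells at 24h and 6 and 5 in WT cells at 0h, so 3′ counts of Cdx2 remained in Null cells. T had 504 and 617 CPM in Null and 523 and 413 CPM in WT cells at 24h, and measured 0.25 ± 0.12 in Null against WT at 24h (adjusted p = 0.215). At 0h T was lower in Null cells, with 15.2 and 10.8 CPM, than in WT cells, with 51.4 and 54.1 CPM.

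In WT cells at 24h against 0h all 6 tested HoxB genes rose, among them Hoxb1 by 4.22 ± 0.25 and Hoxb9 by 4.21 ± 0.64 (adjusted p = 5.9e-06). Of the 4 tested HoxA genes reported here none was called in either direction (median log2 difference 0.35). In Null against WT cells at 24h, Hoxb9 measured -2.84 (adjusted p = 4.4e-04), Hoxb8 -1.94 (adjusted p = 0.0257), Hoxa5 -0.92 (adjusted p = 0.00342) and Hoxb2 1.09 (adjusted p = 0.00546), and the other 6 tested HoxA and HoxB genes reported here did not pass. Hoxa5 was already lower in Null cells at 0h, with 25.8 ± 4.58 CPM, against 46.7 ± 8.88 CPM in WT cells at 0h (SD, n = 2 each). At 0h 2 of the 4 tested HoxA genes and 0 of the 6 tested HoxB genes were called lower in Null, as were 3.35% of all tested genes. Hoxb9 and Hoxd9, of the same paralog group, thus measured -2.84 ± 0.52 and -2.83 ± 0.42. The other 2 genes of that group were scarce and went different ways. Hoxa9 had 3 and 1 counts in Null and 0 and 1 in WT cells at 24h, and Hoxc9 had 0 and 0 in Null and 1 and 1 in WT. Of 9 tested neighbours of HoxD, Chn1 was called lower in WT cells at 24h (-0.74 ± 0.19, adjusted p = 0.0053) and none rose, and of 6 tested neighbours of HoxC none was called. In Null against WT cells at 24h 2 HoxD neighbours were higher, Atp5g3 by 0.40 and Atf2 by 0.43, and 1 HoxC neighbour was higher, Atp5g2 by 0.34, and 1 was lower, Copz1 (-0.40 ± 0.12), where 3.7% of all tested genes were called higher and 4.35% lower. Among 18 tested Polycomb and Trithorax genes, Cbx7 (-3.28 ± 0.56) and Phc1 (-1.46 ± 0.15) were called lower in WT cells at 24h and Cbx2 higher (0.57 ± 0.14), shares near the 8.63% called lower and 8.19% called higher over all tested genes. Phc1 and Cbx7 code for parts of Polycomb repressive complex 1. All 7 tested genes for Cdx, T and trunk signals rose in WT cells at 24h (median log2 difference 3.16), and all 7 rose in Null cells as well (median 3.91).

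The genes most like the leading gene of each table were found by Pearson correlation of log2 CPM, as a description. In EpiSCs Hoxd9 was followed over the 8 libraries by Gpr98 (r = 0.975), Sec63 (0.974), Celf2 (0.974), Zfp292 (0.971) and Gas2l3 (0.970). Celf2, an RNA-binding protein, had 89.4 ± 10.2 CPM in Null cells at 24h, 64.1 ± 5 CPM in Null cells at 0h, 173 ± 14.3 CPM in WT cells at 24h and 84.1 ± 15.8 CPM in WT cells at 0h. In tailbuds Hoxd4, with 256 counts the most counted gene, was followed over the 9 libraries by Tomm20 (r = 0.980), Sdcbp (0.972), Rspo3 (0.971), Hoxb8 (0.970) and Wnt5b (0.969). Rspo3, an enhancer of Wnt signalling, had 15.7 ± 7.33 CPM in Triple, 45.5 ± 6 CPM in Cdx1-4 and 42.9 ± 10.7 CPM in WT tailbuds, and Wnt5b had 11.2 ± 3.92, 48.8 ± 15 and 58.2 ± 20.1 CPM in the same order. The other tested members correlated with Hoxd4 at 0.944 (Hoxd9), 0.941 (Hoxc8), 0.887 (Hoxc5), 0.696 (Hoxd1), 0.662 (Hoxd3) and 0.650 (Hoxc4). These libraries share their groups, depth and scaling, and by Spearman correlation only Gpr98 and Hoxb8 stayed among the 5 nearest genes.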

How the data were processed

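RNA was measured by CEL-seq in 9 E8.0 tailbud and 8 EpiSC libraries, from 10 ng of total RNA each, per the labels' protocols. The authors deposited 1 table of raw, whole-number counts per gene for each set, mapped to mm10 per the submitters' processing notes. The aligner, the counter and the use of strand are not given in the sources used here. Spike-in entries, with 2 counts in the EpiSC table and 1 in the tailbud table, were left out. Each table was fitted alone with edgeR 4.0.16 (R 4.3.3): filterByExpr left 9703 EpiSC and 6003 tailbud genes, and TMM scaling, glmQLFit (robust) and glmQLFTest followed, with 1 mean per group and p-values adjusted by Benjamini-Hochberg over all tested genes (threshold 0.05). Standard errors came from the F statistic. Genes below the filter got the ratio of pooled counts over scaled library sizes. Its exact 95% interval came from the conditional binomial and covers counting error only. Pairs of libraries of a group differed by more than counting error, which would give a chi-square per degree of freedom near 1. That value was 1.69 to 2.09 in tailbuds and 1.76 to 2.93 in EpiSCs, so the intervals are too narrow for the spread between libraries. Where a group had no count, a bound from 3 counts replaced the ratio, without the counting error of the other group. Sequences came from RefSeq (GRCm38.p6). The fit was tested on simulated data. The 10 genes and all gene lists were chosen with earlier results of these data known. The rule for named genes took the 10 genes, Cdx1, Cdx2, Cdx4, T, the 5 genes most like the most counted of the 10 in each table and up to 3 called genes of each list in a comparison. Other Hox genes and genes behind small counts were named after their values were seen. Other alternatives were DESeq2 1.42.0, RLE size factors, no filter, only the compared groups, a replicate block, the blue libraries alone and leaving out each library. Region lists of the series were not used here. Results for 1 gene, which stayed in the fits, are not reported here.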

Additional observations from a re-analysis of the deposited data

How the results depend on the processing

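Of 290 recomputed differences of single genes, 252 kept their direction and their side of the threshold, 19 passed it only under the alternative, 11 passed it only in the fit reported above, and 8 changed sign. The cause of these changes was not tested, other than where fewer libraries or more genes entered the fit. The sign changes were all of differences that were not called: Hoxd9 in the EpiSC interaction (-0.60 without Null 24h replicate 1, and also -0.37 with DESeq2, which gave no adjusted p and is outside these 290), and, in Cdx1-4 against WT, Hoxc5 (0.11 without Cdx1-4 blue-1 and 0.23 without WT blue-2), Hoxd1 (0.14 without Cdx1-4 green-1 and 0.11 without WT blue-2) and Hoxd4 (-0.26 with the blue libraries alone, -0.02 without Cdx1-4 blue-1 and -0.21 without WT green-1). Over all left-out libraries these ran from -0.60 to 1.43 for the interaction, -0.30 to 0.23 for Hoxc5, -0.56 to 0.14 for Hoxd1 and -0.21 to 0.54 for Hoxd4. Without the filter on low counts, 5 of the 10 genes were called in WT EpiSCs at 24h against 0h, in place of 1, 7 in Triple against WT, in place of 3, and 6 in Triple against Cdx1-4, in place of 3. In Null cells at 24h against 0h, 0 were called with only the compared groups, and 0 to 1 when each library was left out. Over all genes, DESeq2 called 844 in place of 1632 in WT at 24h against 0h, 1030 in place of 1807 in Null at 24h against 0h, 258 in place of 647 in Null against WT at 0h, 289 in place of 781 at 24h, 23 in place of 55 in the interaction, 105 in place of 174 in Triple against WT and 69 in place of 121 in Triple against Cdx1-4. The interaction gave 93 genes without the filter, and the blue libraries alone gave 74 in Triple against WT and 38 in Triple against Cdx1-4. Leaving out each library in turn gave 1034 to 1584 genes in WT at 24h against 0h, 1121 to 1424 in Null at 24h against 0h, 326 to 361 in Null against WT at 0h, 357 to 796 at 24h, 18 to 82 in the interaction and 70 to 110 in Triple against Cdx1-4. Over all tested genes, deviations from the group means correlated weakly between libraries with the same replicate number (0.007 to 0.088 in EpiSCs and -0.093 to 0.054 in tailbuds). These values cannot decide whether the numbers pair libraries, because counting noise lowers such correlations. A block for the number gave 1939 called genes in place of 1632 in WT at 24h against 0h. In Triple against WT it gave 163 in place of 174. With the number as a replicate block, 6 of the 10 genes were called in Triple against WT, with Hoxc4 (adjusted p = 0.0483), Hoxc8 (0.00868) and Hoxd1 (0.0037) added, 5 in Triple against Cdx1-4, with Hoxc8 (0.0413) and Hoxd1 (0.0314) added, and 123 genes in the EpiSC interaction. By Spearman correlation, 1 of the 5 genes most like Hoxd9 and 1 of the 5 most like Hoxd4 stayed among the nearest. Leaving out Triple blue-2, an alternative chosen after seeing the data, also used for the shares, ratios and bounds above, gave summed Triple levels of 15.4 CPM for HoxC and 37.8 CPM for HoxD. At 3 counts in a library, the scarce genes Hoxc6, Hoxc9 and Hoxd8 cannot be followed below 3.66 to 8.17 CPM in tailbuds.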
